A study of Mus musculus with 47 samples.

Results

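The expression of 7 genes of the sarcolemma, the excitable membrane of the muscle fibre, was examined in single fibres lacking fast skeletal myosin binding protein C. The genes are Kcnab1, Kcna7, Kcnc4, Kcnj2, Kcnj11, Clcn1 and Scn4a, and they were found by matching their symbols among the 24421 genes of the count tables, where each has 1 entry. They were chosen as potassium, chloride and sodium channel genes of the fibre, and Kcnab1 was chosen by its difference in CPM between the genotypes in these same fibres. All 7 passed the filter on low counts, as did 12863 genes in total.

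Each sample is the RNA of 1 fibre of the EDL (extensor digitorum longus), which lifts the toes and is built almost wholly of fast fibres, from mice of the FVB/N strain aged 2 to 3 months. The data hold 20 C2KO fibres, from mice homozygous for a germline deletion of Mybpc2 (C2-/-), and 27 wild-type (WT) fibres. The deletion was made in the germline without a tissue-specific Cre, so it is not confined to muscle. The labels name 2 C2KO and 3 WT mice but tie no fibre to a mouse. Fibres were therefore summed into pools, the sets of libraries that the labels separate: C2KO pools 740 and 2445, by the prefix of the fibre name (10 fibres each), and WT pools 1, 2 and 3, by sequencing run (10, 10 and 7 fibres). Depth was 7648762 to 10517887 gene counts per C2KO fibre and 7769593 to 14606631 per WT fibre. Levels are counts per 1e6 gene counts (CPM), scaled between pools by edgeR's TMM method where pools are compared.

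The libraries differed in ways that touch these values. Mybpc2 held 2.61 to 47.6 CPM in the C2KO fibres and 6563 to 11556 CPM in the WT fibres, so no genotype label was contradicted. The type IIb markers Myh4, Pvalb, Actn3 and Mylk2 together held 84664 to 111928 CPM per C2KO fibre and 61790 to 109506 CPM per WT fibre, while the 5 markers of slow, IIa and IIx fibres together held at most 405 CPM in C2KO and 508 CPM in WT fibres. All 10 fibres of pool 740 carried Y-linked counts and all 10 of pool 2445 carried Xist, whereas every WT pool mixed both kinds, so in C2KO sex and pool cannot be told apart. Sequencing run was nearly confounded with genotype, since run 0092 alone held both, with 1 C2KO and 7 WT fibres. The 6 fibroblast markers summed to 313 CPM in pool 740, 14.5 CPM in pool 2445 and 0.934 to 18.4 CPM in the WT pools. The fibres of pool 740 carried them unevenly, from 0 to 2121 CPM with a median of 16.4 CPM.

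A muscle fibre fires when voltage-gated sodium channels carry the action potential along the sarcolemma and into the transverse tubules, where it triggers calcium release. Delayed-rectifier potassium channels end the spike. Inward rectifiers and the chloride channel ClC-1 hold the resting potential, and chloride conductance in particular keeps fast fibres from repetitive firing, since its loss causes myotonia. ATP-sensitive channels, built from a Kir6 pore and a sulfonylurea receptor, open when energy is short. Kcnab1 encodes a cytoplasmic beta subunit, related to aldo-keto reductases, that binds the Kv1 alpha subunits and can speed their inactivation.

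The promoters of the genes whose C2KO pools both lay below every WT pool are printed first, because they are the regulatory sequences closest to those values. RefSeq windows on GRCm38.p6, the assembly also called mm10, reach from 250 bases before to 50 bases after each annotated start. Of the 7 genes 6 matched an entry, with 8 windows between them, and Kcnj11 had none. Kcnab1 has 3 starts, at 64949212, 65109014 and 65188103 of chromosome 3, the first of which lies 160156 bases before the gene as the count tables define it. The windows of the other 2 are shown with those of Kcnc4, Kcnj2 and Scn4a, each read 5′ to 3′ on the strand of the gene, with CG dinucleotides in capitals.
Kcnab1, chr3:65108764-65109063, plus strand: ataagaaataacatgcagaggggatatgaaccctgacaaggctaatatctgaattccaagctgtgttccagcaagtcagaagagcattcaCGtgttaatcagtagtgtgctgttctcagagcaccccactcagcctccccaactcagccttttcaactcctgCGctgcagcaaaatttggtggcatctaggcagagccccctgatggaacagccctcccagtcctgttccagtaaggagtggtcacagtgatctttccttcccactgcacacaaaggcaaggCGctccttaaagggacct
Kcnab1, chr3:65187853-65188152, plus strand: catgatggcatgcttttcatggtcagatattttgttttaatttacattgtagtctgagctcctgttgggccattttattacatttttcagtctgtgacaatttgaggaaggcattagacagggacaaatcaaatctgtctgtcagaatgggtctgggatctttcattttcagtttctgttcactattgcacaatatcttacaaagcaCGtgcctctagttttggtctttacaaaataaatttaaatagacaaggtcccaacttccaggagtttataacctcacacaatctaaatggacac
Kcnc4, chr3:107458849-107459148, minus strand: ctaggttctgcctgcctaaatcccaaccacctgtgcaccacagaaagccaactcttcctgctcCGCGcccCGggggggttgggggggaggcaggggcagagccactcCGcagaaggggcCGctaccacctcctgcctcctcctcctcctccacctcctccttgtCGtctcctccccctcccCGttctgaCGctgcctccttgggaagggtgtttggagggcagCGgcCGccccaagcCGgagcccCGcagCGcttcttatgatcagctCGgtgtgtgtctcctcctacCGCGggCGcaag
Kcnj2, chr11:111065914-111066213, plus strand: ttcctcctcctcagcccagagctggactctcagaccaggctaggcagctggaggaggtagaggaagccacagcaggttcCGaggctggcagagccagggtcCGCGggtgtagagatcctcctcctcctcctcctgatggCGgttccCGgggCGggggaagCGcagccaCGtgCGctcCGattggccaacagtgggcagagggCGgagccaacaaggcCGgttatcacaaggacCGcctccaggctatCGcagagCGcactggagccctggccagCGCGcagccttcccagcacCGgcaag
Scn4a, chr11:106349341-106349640, minus strand: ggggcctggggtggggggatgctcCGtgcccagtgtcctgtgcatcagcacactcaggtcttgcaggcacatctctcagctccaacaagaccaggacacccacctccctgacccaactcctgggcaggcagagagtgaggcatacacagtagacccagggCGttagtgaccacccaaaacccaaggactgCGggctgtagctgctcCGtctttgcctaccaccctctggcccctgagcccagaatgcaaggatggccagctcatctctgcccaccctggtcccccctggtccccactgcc

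The 5 windows shown fall into CG-poor and CG-rich sequences. Those of Kcnab1 hold 3 and 1 CG dinucleotides and that of Scn4a holds 4, against 17 for Kcnc4 and 18 for Kcnj2. The Kcnab1 window that is not shown, at the start 64949212, holds 7, so not every Kcnab1 window is CG-poor. Over all 32851 windows the median was 7, 31.4% held at most 3 and 31.4% held at least 17. The E-box CAGCTG, the preferred site of MyoD-like factors and its own reverse complement, was found on searching both strands in 1 of the 8 windows, that of Kcnj2 from position -206 relative to the start, and in 16.3% of all windows. The MEF2 motif, also searched on both strands, was found only in the window of Clcn1 among the 8 and in 3.19% of all windows. Gene counts cover the exons of a gene as it was defined for counting, so they do not say which Kcnab1 start was used. The Kcnab1 start at 65109014 also lies before the counted gene, by 354 bases. Only the start at 65188103 lies inside it.

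Kcnab1 (mm10 chromosome 3, 65109368 to 65378225, plus strand) showed the largest difference among the 7 genes. Pools 740 and 2445 of C2KO held 7.64 and 8.74 CPM, against 20.9, 20.5 and 19.2 CPM in WT pools 1, 2 and 3. The means were 8.19 ± 0.776 CPM in C2KO (SD, n = 2 pools) and 20.2 ± 0.905 CPM in WT (SD, n = 3 pools). The log2 fold change was -1.30 (SE 0.11), or 2.47-fold lower in C2KO, and the pools did not overlap. The gene was chosen by this value, so it is a description and is given no test.

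Single fibres of the genotypes overlapped in part. Kcnab1 had a lowest, median and highest value of 0.523, 6.96 and 15.1 CPM over the 20 C2KO fibres, against 3.402, 20.7 and 35.4 CPM over the 27 WT fibres. All 20 C2KO fibres lay below the WT median, 21 of the 27 WT fibres lay above the highest C2KO fibre, and 1 C2KO fibre lay below the lowest WT fibre. Every fibre held Kcnab1 counts, from 4 to 150 per C2KO fibre and from 45 to 465 per WT fibre. The coefficient of variation across fibres was 47.2% in C2KO and 37.95% in WT, where counting error alone would give 11.4% in C2KO and 6.63% in WT.

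The same Kcnab1 values, split by run and by sex-linked counts, are given as a further description of the fibres by which the gene was chosen. In run 0092, the run with both genotypes, the single C2KO fibre held 0.523 CPM (4 counts) and the 7 WT fibres held 9.41 to 28.4 CPM, with a median of 20.5 CPM, so the C2KO side rests on 1 fibre. Among fibres with Y-linked counts the medians were 6.96 CPM in C2KO (n = 10) and 20.5 CPM in WT (n = 15). Among fibres with Xist counts they were 7.34 CPM in C2KO (n = 10) and 24.2 CPM in WT (n = 11). Within C2KO, the 6 fibres of pool 740 that were sequenced together with pool 2445 had a median of 7.97 CPM, and the 10 of pool 2445 one of 7.34 CPM.

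**Figure D1:**
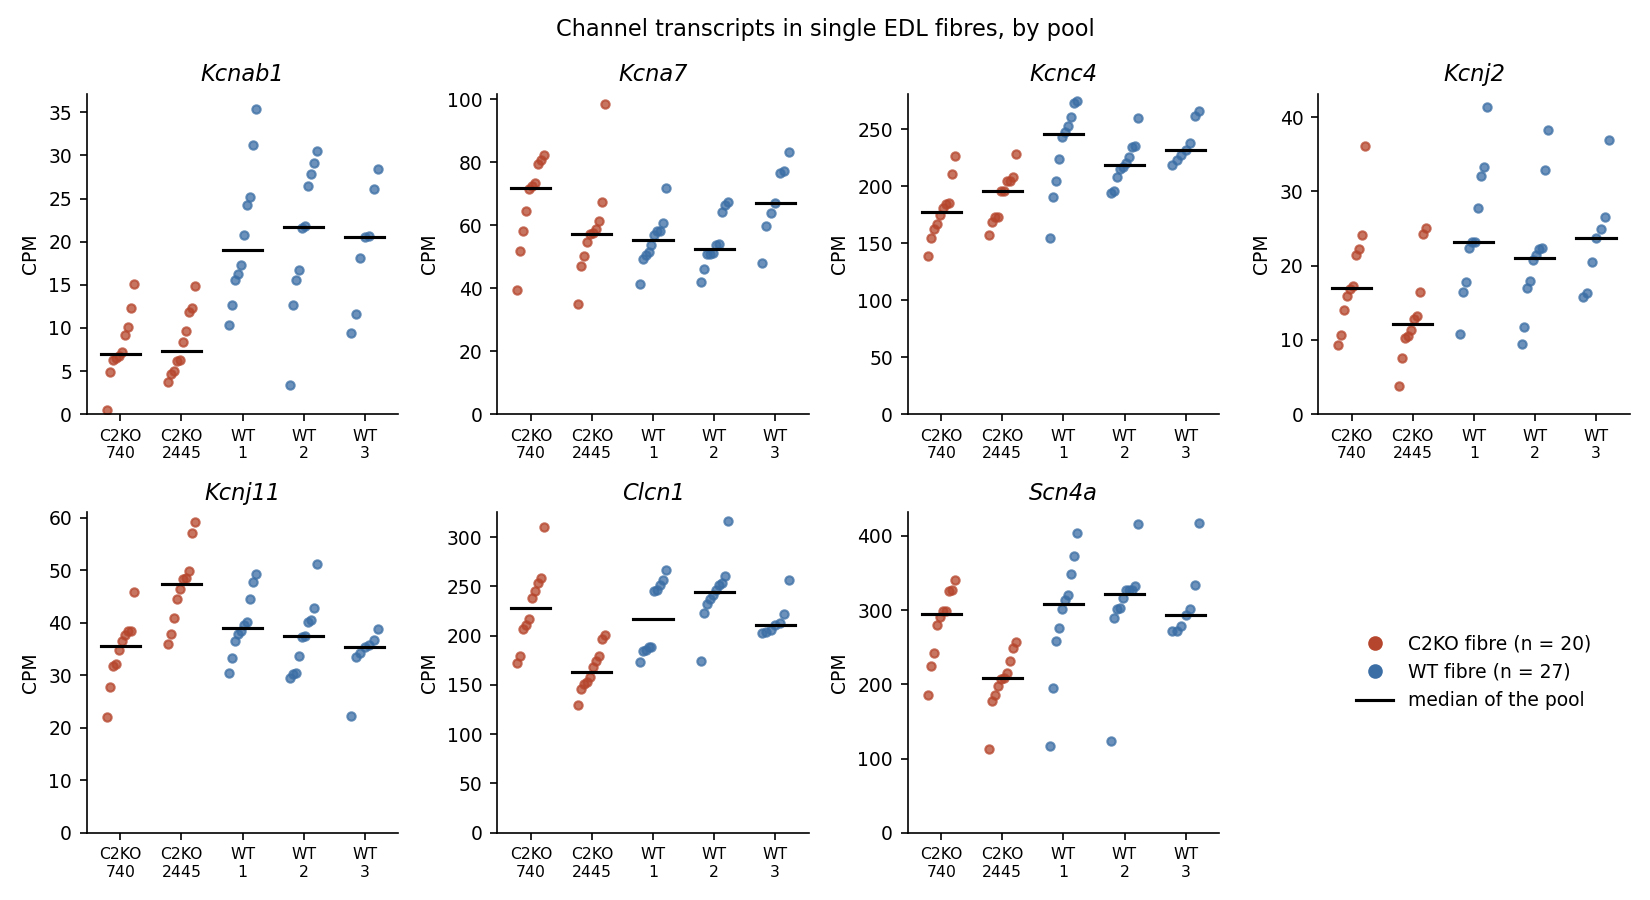
CPM of each of the 7 genes (vertical axes, from 0) in every fibre, by pool on the horizontal axis; each point is 1 fibre (20 C2KO in red, 27 WT in blue) and each bar is the median of the pool. Kcnab1 has pool medians of 6.96 and 7.34 CPM in C2KO against 18.997, 21.7 and 20.5 CPM in WT, while the medians of the C2KO pools also differ from each other in the other 6 genes.

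Kcnab1 was the beta subunit gene of these fibres, and Kcna7 was its 1 potential Kv1 partner above 1 CPM. Its paralogs were close to silent: Kcnab3 had 98 counts over all 47 fibres and Kcnab2 had 3, against 8041 for Kcnab1. Per length, Kcnab1 stood at 2.36 CPM per kb in C2KO and 5.81 CPM per kb in WT, and Kcnab3 at 0.0638 CPM per kb in C2KO and 0.0807 CPM per kb in WT. Kcnab3 did not pass the test (log2 fold change -0.34, SE 0.64, edgeR adjusted p = 0.887). No Kcna gene other than Kcna7 reached a mean of 1 CPM, and the next highest, Kcna1, averaged 0.124 CPM.

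Kcna7 encodes Kv1.7, a delayed rectifier of the Kv1 family found in skeletal muscle and heart (chromosome 7, 45405960 to 45411382, plus strand). Its level was 64.7 and 61.8 CPM in C2KO pools 740 and 2445, against 55.3, 54.3 and 67.0 CPM in WT pools 1, 2 and 3. The C2KO pools lay inside the range of the WT pools, and the log2 fold change was 0.10 (SE 0.12), which ran from 0.05 without WT pool 2 to 0.21 without WT pool 3. Over fibres, the lowest, median and highest values were 34.9, 60.1 and 98.7 CPM in C2KO and 41.5, 57.1 and 83.3 CPM in WT. The gene starts 881 kb from the end of Mybpc2 on the same chromosome.

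The balance of beta to alpha transcripts therefore differed between the genotypes. The ratio of Kcnab1 to Kcna7 per length had a median of 0.1202 over C2KO fibres, with a range of 0.00662 to 0.385, against 0.353 over WT fibres, with a range of 0.0635 to 0.729. Pool medians were 0.107 and 0.141 in C2KO against 0.356, 0.410 and 0.269 in WT. Across fibres the 2 transcripts were not positively correlated, and Spearman's rho was -0.20 in C2KO (n = 20) and -0.18 in WT (n = 27). The ratio rests on the Kcnab1 values that chose the gene, and all these values share the same library totals.

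Kcnc4, which encodes Kv3.4, a fast-activating and rapidly inactivating channel of fast fibres (chromosome 3, 107438303 to 107458898, minus strand), was the highest of the 7 per length. It held 172 and 202 CPM in C2KO pools 740 and 2445, against 235, 218 and 236 CPM in WT pools 1, 2 and 3. The pools did not overlap, and the log2 fold change was -0.30 (SE 0.10), which was -0.41 without pool 2445 and -0.19 without pool 740. Over fibres, the lowest, median and highest values were 138, 183 and 228 CPM in C2KO and 155, 227 and 275 CPM in WT. Of the 20 C2KO fibres 19 lay below the WT median, and the gene varied least among fibres, with a coefficient of variation of 13.1% in C2KO and 12.3% in WT.

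Kcnj2 encodes Kir2.1, the inward rectifier of the resting membrane and of the transverse tubules, whose mutation causes periodic paralysis in Andersen-Tawil syndrome (chromosome 11, 111066164 to 111076825, plus strand). C2KO pools 740 and 2445 held 18.2 and 14.3 CPM, against 25.01, 21.5 and 23.1 CPM in WT pools 1, 2 and 3. Both C2KO pools lay below the WT pools, and the log2 fold change was -0.51 (SE 0.14), which was -0.34 without pool 2445 and -0.70 without pool 740. Single fibres spread widely, with a lowest, median and highest value of 3.86, 14.98 and 36.1 CPM in C2KO and 9.44, 22.3 and 41.3 CPM in WT, and only 3 C2KO fibres lay below every WT fibre. The related Kir2.2 gene Kcnj12 stood higher per length, at 16.7 CPM per kb in C2KO and 17.8 CPM per kb in WT, while Kcnj2 stood at 2.98 CPM per kb in C2KO and 4.26 CPM per kb in WT. Kcnj12 did not pass the test (log2 fold change -0.10, SE 0.11, edgeR adjusted p = 0.7999).

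Kcnj11 encodes Kir6.2, the pore of the ATP-sensitive potassium channel (chromosome 7, 46097123 to 46100764, minus strand). C2KO pools 740 and 2445 held 33.5 and 49.5 CPM, against 40.0, 36.8 and 33.6 CPM in WT pools 1, 2 and 3. The C2KO pools lay on either side of the WT pools, so the log2 fold change of 0.17 (SE 0.18) described neither, and it was -0.13 without pool 2445 and 0.43 without pool 740. Over fibres, the lowest, median and highest values were 22.2, 38.4 and 59.3 CPM in C2KO and 22.3, 37.3 and 51.3 CPM in WT. Its partners were measured too. Abcc9, the gene of the receptor SUR2, stood at 29.5 CPM per kb in C2KO and 31.9 CPM per kb in WT, and Abcc8, the gene of SUR1, at 1.81 CPM per kb in C2KO and 1.84 CPM per kb in WT. Neither passed the test (Abcc9 log2 fold change -0.11, SE 0.10, edgeR adjusted p = 0.748; Abcc8 -0.03, SE 0.36, edgeR adjusted p = 0.987), and Abcc8 was at -0.74 without pool 2445 and 0.45 without pool 740. The ratio of Kcnj11 to Abcc9 per length had medians of 0.337 and 0.539 in C2KO pools 740 and 2445 and of 0.335, 0.351 and 0.331 in the WT pools.

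Clcn1 encodes ClC-1, the chloride channel of the sarcolemma (chromosome 6, 42286685 to 42314656, plus strand). It held 219 and 175 CPM in C2KO pools 740 and 2445, against 220, 243 and 214 CPM in WT pools 1, 2 and 3. Pool 740 lay within the WT range and pool 2445 below it, which gave a log2 fold change of -0.20 (SE 0.12). It was -0.04 without pool 2445 and -0.37 without pool 740. Over fibres, the lowest, median and highest values were 130, 188 and 310 CPM in C2KO and 173, 232 and 316 CPM in WT. In C2KO, 7 fibres lay below every WT fibre.

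Scn4a encodes Nav1.4, the pore-forming sodium channel of the muscle action potential (chromosome 11, 106318593 to 106349390, minus strand). It held 270 and 215 CPM in C2KO pools 740 and 2445, against 295, 307 and 306 CPM in WT pools 1, 2 and 3. Both C2KO pools were lower, and the log2 fold change was -0.32 (SE 0.11), which was -0.16 without pool 2445 and -0.49 without pool 740. Over fibres, the lowest, median and highest values were 112, 237 and 341 CPM in C2KO and 117, 303 and 417 CPM in WT. Scn4b, the gene of a beta subunit, was at 85.9 CPM per kb in C2KO and 92.2 CPM per kb in WT. It did not pass the test, and its log2 fold change was -0.10 (SE 0.093, edgeR adjusted p = 0.736).

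**Figure D2:**
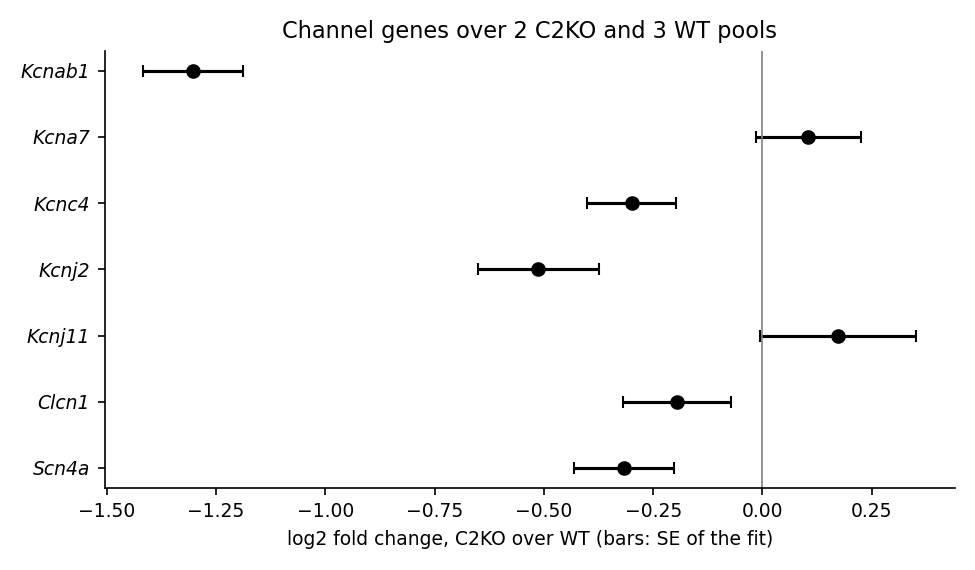
Log2 fold change of C2KO over WT (horizontal axis) for each of the 7 genes, from edgeR on 2 C2KO and 3 WT pools; points are the estimates and bars their standard errors. Kcnab1 stands at -1.30, and the other 6 lie between -0.51 and 0.17.

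Over the 7 genes, 5 had a lower and 2 a higher estimate in C2KO, with a median log2 fold change of -0.30. In 4 of them, Kcnab1, Kcnc4, Kcnj2 and Scn4a, both C2KO pools lay below all WT pools, a pattern found in 14.5% of the 12863 tested genes. As the list was chosen with these values known, the counts are given without a test and nothing is read from them. Leaving out 1 pool in turn moved the log2 fold change of Kcnab1 between -1.40 and -1.21.

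The C2KO pools also differed from each other. Kcnj11 was higher in pool 2445, and Kcnj2, Clcn1 and Scn4a were higher in pool 740, which was the pool with Y-linked counts and with most fibroblast RNA. Among C2KO fibres the medians with Y-linked and with Xist counts were 17.1 and 12.1 CPM for Kcnj2, 35.7 and 47.4 CPM for Kcnj11, 228 and 163 CPM for Clcn1, 295 and 208 CPM for Scn4a, 71.98 and 57.3 CPM for Kcna7, and 178 and 196 CPM for Kcnc4. Among WT fibres they were 22.2 and 23.2 CPM for Kcnj2, 34.2 and 37.8 CPM for Kcnj11, 246 and 206 CPM for Clcn1, 327 and 289 CPM for Scn4a, 58.1 and 51.3 CPM for Kcna7, and 223 and 247 CPM for Kcnc4. Of these genes Kcnj2 had the 2 medians in opposite orders in the genotypes. The part of sex, of pool and of other cells' RNA in these differences was not tested.

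Per length the order of the 7 genes was nearly alike in the genotypes. In C2KO it ran Kcnc4 (61.9 CPM per kb), Clcn1 (55.6), Scn4a (36.8), Kcna7 (18.1), Kcnj11 (12.8), Kcnj2 (2.98) and Kcnab1 (2.36 CPM per kb). In WT it ran Kcnc4 (76.2 CPM per kb), Clcn1 (63.6), Scn4a (45.8), Kcna7 (16.9), Kcnj11 (11.3), Kcnab1 (5.81) and Kcnj2 (4.26 CPM per kb). Kcnab1 and Kcnj2 thus changed places at the bottom. The neighbours Kcnc4 and Clcn1 overlapped in C2KO, where the pools of Kcnc4 held 56.99 and 66.9 CPM per kb and those of Clcn1 61.8 and 49.3. No other neighbours in either order overlapped. In WT, Kcnab1 pools lay between 5.52 and 6.02 CPM per kb and Kcnj2 pools between 3.95 and 4.59.

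**Figure D3:**
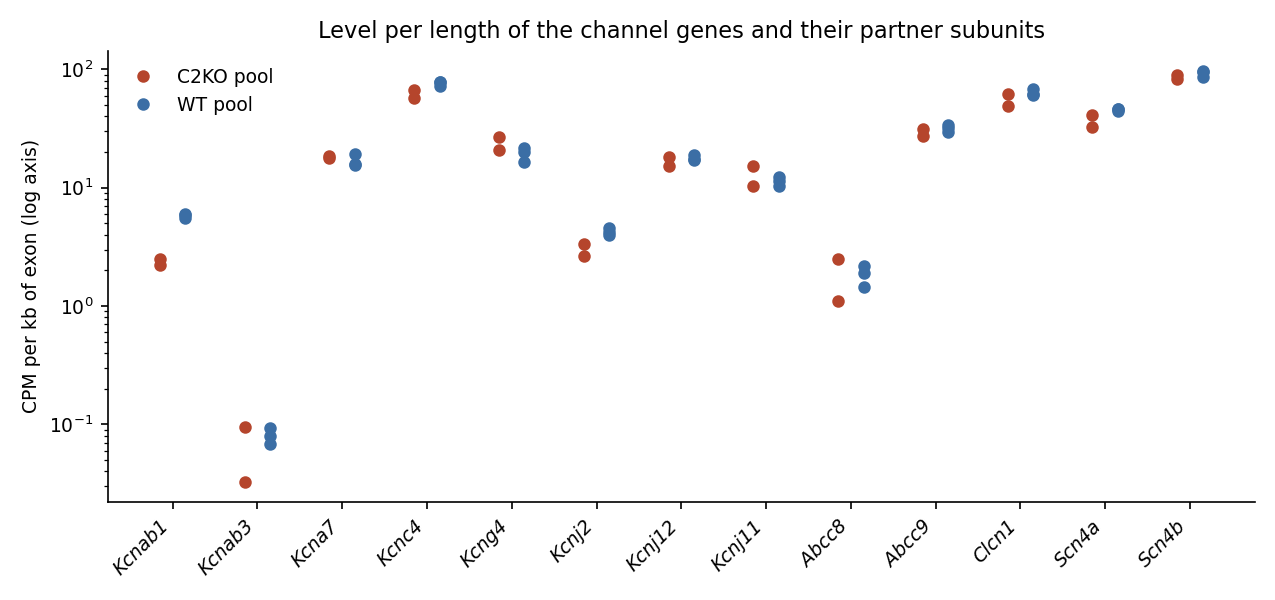
CPM per kb of exon (vertical log axis) of the 7 genes and of partner or related subunits; each point is 1 pool, with 2 C2KO pools in red left of 3 WT pools in blue. Kcnab1 is separated between genotypes (2.20 and 2.51 CPM per kb in C2KO against 5.52 to 6.02 in WT), and Kcnab3 lies near 0.1 CPM per kb or below.

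The transcripts were not one block across fibres. Of the 21 pairs of the 7 genes, 9 had a positive Spearman's rho in both genotypes and 6 a negative one, with median rho of 0.17 over C2KO (n = 20 fibres) and 0.067 over WT (n = 27 fibres). Clcn1 and Scn4a gave the strongest positive pair, with Pearson's r of 0.57 and rho of 0.63 in C2KO, and r of 0.65 and rho of 0.61 in WT. Within C2KO pools 740 and 2445 that rho was 0.15 and 0.30, and within the WT pools 0.47, 0.87 and 0.25. Kcnj11 ran against Clcn1, with rho of -0.64 in C2KO and -0.43 in WT, and within pools rho was -0.20 and -0.38 in C2KO and -0.14, -0.67 and 0.071 in WT. In C2KO, rho with total counts was -0.68 for Clcn1, -0.56 for Scn4a and 0.56 for Kcnj11, against 0.23, 0.28 and 0.084 in WT. Within C2KO pools 740 and 2445 it was -0.45 and -0.07 for Clcn1, -0.03 and 0.04 for Scn4a, and 0.43 and -0.24 for Kcnj11. Within the WT pools it ran from -0.12 to 0.58 for Clcn1, from -0.21 to 0.64 for Scn4a, and from -0.50 to 0.79 for Kcnj11. The part of depth in these pairs was not tested. These are descriptions over fibres that share library totals, and the C2KO values over both pools include the difference between the pools.

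The genes whose levels followed Kcnab1 most closely from fibre to fibre were others. Likeness was the mean of the 2 within-genotype Spearman's rho over 5864 genes with at least 10 CPM in both genotypes. The 5 highest were Ctxn3 at 0.72, Mpp3 at 0.72, Sytl2 at 0.71, Tecr at 0.70 and Kcnf1 at 0.67. Mpp3 encodes a membrane-associated guanylate kinase scaffold, Sytl2 a Rab27-binding protein of vesicle traffic, Tecr the last enzyme of very-long-chain fatty acid elongation, and Kcnf1 an electrically silent Kv subunit. For Sytl2, rho was 0.64 in C2KO and 0.78 in WT, and between 0.62 and 0.93 within each of the 5 pools. The 5 genes were picked as the highest over these same fibres, so their rho within pools is no separate support. Within pools rho ran from 0.53 to 0.95 for Ctxn3 and from 0.68 to 0.78 for Kcnf1. It ran from 0.36 to 0.78 for Mpp3, lowest in WT pool 3, and from 0.37 to 0.88 for Tecr, lowest in WT pool 2. Without the 2 fibres farthest from the Kcnab1 median, Pearson's r over a genotype lay between 0.37 and 0.78 for these 5 genes. Within WT pool 2 it fell from 0.55 to 0.066 for Ctxn3 and from 0.13 to -0.55 for Tecr. Within WT pool 3 it fell from 0.36 to -0.73 for Mpp3 and from 0.60 to 0.16 for Kcnf1. Within pool 2445 it fell from 0.70 to 0.47 for Sytl2. These were the lowest values of each gene within a pool. None of the 5 passed the edgeR test between genotypes, with log2 fold changes from -0.60 (Sytl2, SE 0.25, adjusted p = 0.488) to 0.45 (Kcnf1, SE 0.25, adjusted p = 0.569). Without pool 740 these were -0.22 for Sytl2 and 0.083 for Kcnf1, and without pool 2445 -1.10 for Sytl2 and 0.74 for Kcnf1. Of the other 6 channel genes the nearest was Clcn1, at likeness 0.32 and rank 306.

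Mybpc2 itself came sixth in likeness, at 0.65. In C2KO fibres, where Mybpc2 held at most 47.6 CPM, its level followed Kcnab1 with r of 0.65 and rho of 0.69 (n = 20), and r stayed at 0.65 without the 2 fibres farthest from the Kcnab1 median. In WT fibres r was 0.56 and rho 0.62 (n = 27), and r was 0.54 without the 2 farthest fibres. Within pools rho was 0.59 and 0.67 in C2KO and 0.33, 0.82 and 0.93 in WT. Without the 2 farthest fibres of a pool, r fell from 0.56 to 0.30 in pool 740 and from 0.78 to 0.50 in pool 2445. In WT pools 1, 2 and 3 it went from 0.38 to 0.50, from 0.62 to 0.66 and from 0.88 to 0.73. The C2KO fibre with the least Kcnab1 (0.523 CPM) also had the least Mybpc2 (2.61 CPM), and it was the single C2KO fibre of run 0092. Type IIb markers followed Kcnab1 less, with rho of 0.38 in C2KO and 0.36 in WT, and rho with total counts was -0.053 in C2KO and 0.095 in WT.

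**Figure D4:**
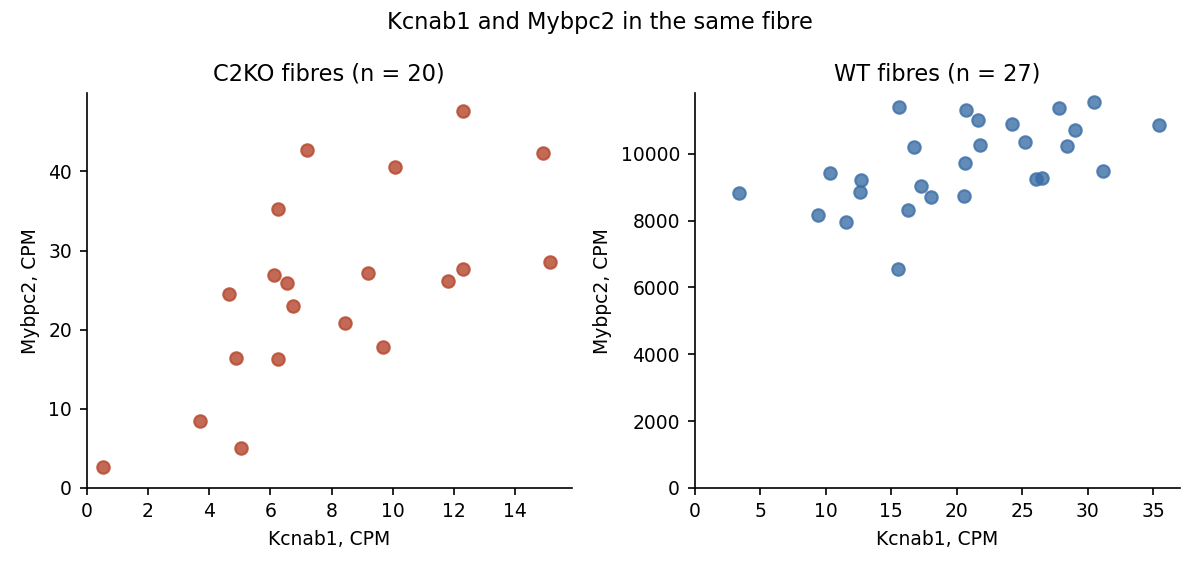
Mybpc2 against Kcnab1, both in CPM with axes from 0, in 20 C2KO fibres (left) and 27 WT fibres (right); each point is 1 fibre and the vertical scales differ. Both panels slope upwards, with Spearman's rho of 0.69 in C2KO and 0.62 in WT.

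Other channel genes were measured as well. A list of 201 other ion channel, pump and anchor genes in 11 families had 94 tested members. None of the 94 passed the edgeR call (adjusted p below 0.05 with more than a 1.5-fold difference), which 0.0466% of all tested genes, or 6, passed. Of the 94, 14 had an unadjusted p under 0.05 (6 higher and 8 lower in C2KO, or 14.9%, against 10.3% of all tested genes), and 42 of the 94 had a positive log2 fold change. The median was -0.037, against -0.00038 over all tested genes. Both C2KO pools lay below all WT pools for 16 of the 94 (17.02%), against 14.5% of all tested genes.

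By family the medians stayed within 0.37 of 0. Of 15 tested Kv alpha subunit genes 7 were positive (median -0.066), of 18 chloride and anion channel genes 11 (median 0.076), of 11 voltage-gated calcium channel genes 2 (median -0.19), and of 10 sodium pump genes 6 (median 0.036). The 4 accessory potassium channel subunits, with a median of -0.37, were all low in counts, and their most abundant per length, Kcne1l, was at 1.10 CPM per kb in C2KO and 0.835 CPM per kb in WT (log2 fold change 0.39, SE 0.93, edgeR adjusted p = 0.918). Its log2 fold change was -1.002 without pool 2445, 1.07 without pool 740 and 1.62 without WT pool 1. The 4 tested inward rectifier and sulfonylurea receptor genes had a median of -0.062. The tested tandem-pore potassium channels were 3, of which Kcnk7 was the highest per length over the mean of both genotypes. It stood at 0.210 CPM per kb in C2KO and 0.481 CPM per kb in WT (log2 fold change -1.19, SE 0.58, edgeR adjusted p = 0.529). In C2KO Kcnk2 averaged 0.233 CPM per kb, but it stood above Kcnk7 in pool 2445 only. Both were low, with 0.302 and 0.167 CPM of Kcnk7 and 0.907 and 1.01 CPM of Kcnk2 in pools 740 and 2445. Kcnk7 was at -0.83 without pool 2445 and -1.68 without pool 740 on the log2 scale.

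The genes with the highest level per length of 6 families, over the mean of both genotypes, were also measured without a call. Kcng4, a silent Kv subunit, stood at 23.6 CPM per kb in C2KO and 19.4 CPM per kb in WT, and its log2 fold change was 0.28 (SE 0.16, edgeR adjusted p = 0.581). Kcnma1, the large-conductance calcium-activated potassium channel, stood at -0.14 (SE 0.18, edgeR adjusted p = 0.829) and Ano10 of the anoctamin family at -0.33 (SE 0.16, edgeR adjusted p = 0.541). Both depended on the C2KO pool: Kcnma1 was at 0.13 without pool 2445 and -0.45 without pool 740, and Ano10 at -0.08 without pool 2445 and -0.61 without pool 740. Kcng4 was at 0.09 without pool 2445 and 0.45 without pool 740. Cacng1, the gamma subunit of the voltage sensor of the transverse tubule, was at 380 CPM per kb in C2KO and 383 CPM per kb in WT, with a log2 fold change of -0.01 (SE 0.077). Fxyd1, the pump regulator phospholemman, stood at -0.09 (SE 0.10) and Stim1, the calcium sensor of store-operated entry, at -0.16 (SE 0.095), which was -0.06 without pool 2445 and -0.25 without pool 740. Orai1, the pore of store-operated entry, averaged 33.1 CPM per kb in C2KO and 29.2 in WT, against 30.2 and 33.7 for Stim1. Per length it stood above Stim1 in pool 2445 only, and below it in pool 740 and in every WT pool. In pools 740 and 2445, Orai1 held 54.96 and 68.7 CPM and Stim1 116 and 102 CPM.

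**Figure D5:**
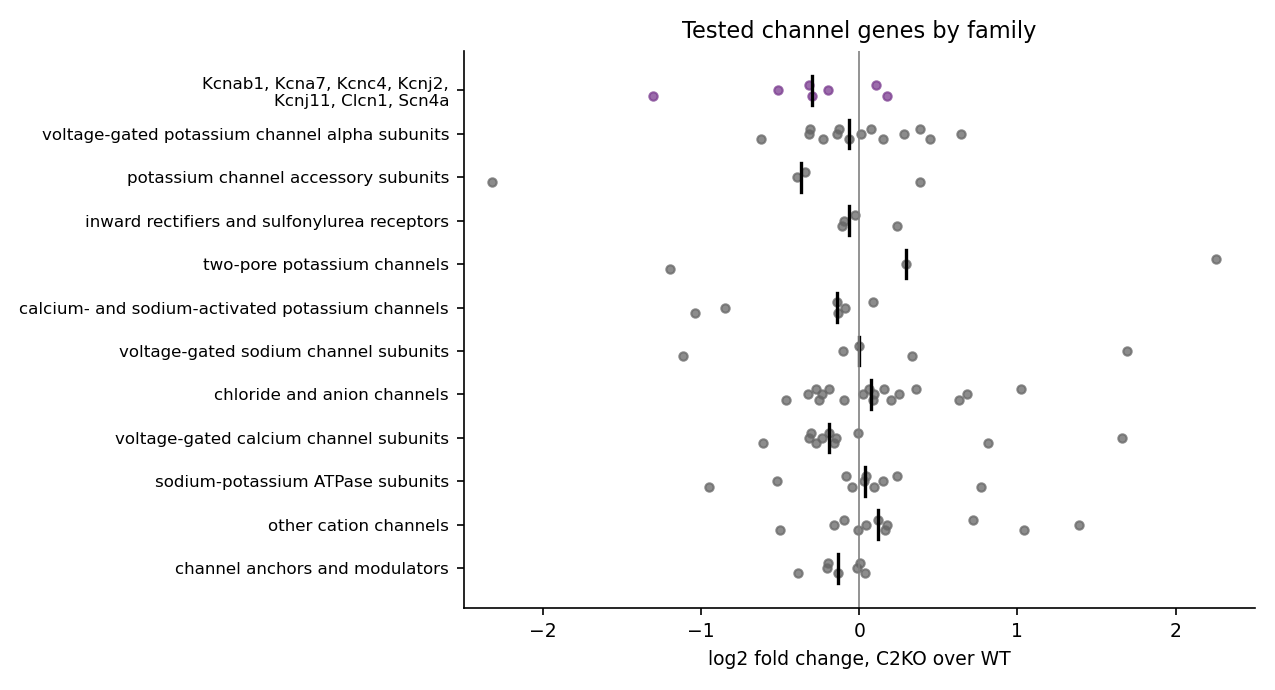
Log2 fold change of C2KO over WT (horizontal axis) of the 7 channel genes (purple, top row) and of 94 other tested channel genes by family (grey); each point is 1 gene and each bar the median of its row. Kcna2, at -4.17 on few counts, lies beyond the axis; family medians run from -0.37 to 0.30.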

How the data were processed

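Each fibre's deposited table holds raw whole-number counts for 24421 genes of mm10. The authors aligned reads with HISAT2 2.0.5 and, per the file headers, used featureCounts 1.5.2 with strand option 2 to count pairs per gene. The strandedness of the library kit is not given in the sources that were used. No exon of the 7 genes shares bases with another gene's exons.

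Counts were summed per pool and 12863 genes tested in R 4.3.3 with edgeR 4.0.16 (filterByExpr, TMM, glmQLFit, glmQLFTest) and Benjamini-Hochberg adjustment. A call needed more than a 1.5-fold difference and an adjusted p below 0.05. Each fibre's CPM refers to its total gene count, and levels between genes are divided by exon length. No label ties a pool to a mouse and WT pools share mice, so p-values measure the spread between pools, which may be technical. By sex-linked counts each WT pool mixes mice, while each C2KO pool can be a single mouse. The spread between WT pools can therefore be smaller than that between mice, which would make standard errors and p-values too small. The code was tested on simulated data.

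The members and the channel lists were chosen with earlier results of these data known. Named were the 7 genes, Kcnab2, Kcnab3, Kcna genes with a mean of at least 1 CPM, the partners Abcc8, Abcc9, Kcnj12 and Scn4b, Mybpc2, the 5 genes most like Kcnab1, and up to 3 called genes per list, else its most abundant tested gene per length. Some genes that the rule takes are not reported here. Genes named outside this rule (Kcna1, Kcna2, Kcnk2, Orai1 and those in the closing section) were chosen after their values were seen. Alternatives were DESeq2 1.42.0, limma 3.58.1 with voom, other scaling, no count filter, run as a covariate, leaving out each pool, and, added after seeing the data, fibres of 1 sex-linked kind.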

Additional observations from a re-analysis of the deposited data

Results flagged for a closer look

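In all, 5 values in 3 fibres stood apart from the rest of their pool by Dixon's test at the 95% level, among 35 sets of 7 to 10 fibres, where chance flags about 1 in 20. Kcna7 reached 98.7 CPM in 1 fibre of C2KO pool 2445, against 67.4 CPM in the next. Kcnj11 was at 22.3 CPM in 1 fibre of WT pool 3, against 33.6 CPM in the next lowest, and the same fibre reached 257 CPM of Clcn1 and 417 CPM of Scn4a, against 221 and 334 CPM in the next highest. Scn4a was at 123 CPM in 1 fibre of WT pool 2, against 289 CPM in the next lowest.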

How the results depend on the processing

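Kcnab1 was lower in C2KO in all 14 alternative fits. The gene was chosen by this difference in the same fibres, so these fits are no separate support for it. Its log2 fold change was -5.12 (SE 1.13) with run as a covariate over fibres, a fit in which run 0092 with its single C2KO fibre carries the contrast, and -1.41 with only Xist fibres, while leaving out 1 pool gave -1.40 to -1.21. Kcna7, Kcnc4, Kcnj2 and Scn4a kept their sign in all 14 fits, Clcn1 in 13 (0.056 with run as a covariate) and Kcnj11 in 11. The 6 calls over all genes became 210 with DESeq2, 474 with limma-voom on fibres, 41 with run as a covariate, 11 without the count filter, 286 with only Y-linked fibres, and 1 to 358 without 1 pool. The 358 calls arose without C2KO pool 2445. The 0 calls of the channel list became 1 with DESeq2 (Fxyd6), 3 with limma-voom on fibres (Atp1b1, Atp1b4 and Fxyd6) and 0 to 2 without 1 pool (Kcnj8 and Fxyd5 without pool 2445). At an unadjusted p under 0.05, DESeq2 counted 19 of 154 channel genes. The share of all genes in that fit was not worked out, so nothing is read from this count. Fits that take fibres as units treat fibres of 1 mouse as independent. The cause of these differences was not tested. Of the 5 genes most like Kcnab1, 2 stayed among the 5 with Pearson's r on log2(CPM + 1) and 4 with each of the other measures. TPM in place of CPM per kb left the order of the 7 genes as it was in both genotypes. No paired analysis was possible because the labels pair no C2KO with a WT fibre. Counts limit Kcnab1 most, with 4 in its lowest fibre.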
